A study of Mus musculus with 6 samples.

Results

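The genes described here are 53 of the 54532 genes listed in each library. They form 2 branches of the cellular response to shortage of amino acids and to unfolded protein, and were taken by gene symbol from a fixed list: 29 genes of the amino acid response (Asns, Chac1, Trib3 and others, down to Eif4ebp1) and 24 genes of endoplasmic reticulum stress (Hspa5, Ddit3, Atf4 and others, down to Ppp1r15a). All 53 were listed and all 53 passed the filter on low counts that left 14129 genes for testing. The RNA came from YAMC cells, a line of young adult mouse colonic epithelium with the genotype labelled WT, made from a mouse that carries the temperature-sensitive tsA58 large T antigen of SV40 under the interferon-gamma-inducible H-2Kb promoter. All cells, controls included, were grown at 33 °C with interferon-gamma, the conditions under which that antigen is made. Both groups are thus immortalised cultures, and colonic epithelium is their label. For 3 libraries the cells were treated for 6 h with 20 µg/ml of the human milk oligosaccharide 2'-fucosyllactose (2'-FL). The 3 control libraries are of untreated cells, whose time in culture the labels do not give. The series asks whether 2'-FL acts directly on intestinal epithelial cells.

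The amino acid response starts when a kinase such as GCN2 or PERK phosphorylates the translation factor eIF2, which slows most translation and lets the transcription factor ATF4 be made. ATF4 then raises genes for amino acid synthesis and import, for the charging of tRNA and for its own inhibitors. Unfolded protein in the endoplasmic reticulum is sensed by PERK, IRE1 (Ern1) and ATF6. Through ATF6 and the spliced form of XBP1 these sensors raise the chaperones, disulfide isomerases and degradation machinery of that compartment. Secretory epithelia of the gut depend on this system, and ATF4, made through PERK, links both branches.

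Total counts ranged from 19978583 to 25251187 per library, the highest being 2'-FL replicate 2. That library stood apart from the others before any gene list was considered. On the first principal component, which held 28% of the variance of log2 CPM (counts scaled to a common library total), it lay at 34.1 and the other 5 libraries between -13.9 and 0.52. Its share of mitochondrial counts was the lowest, 0.366% against up to 0.618%. The counts, the medians and the log2 fold changes of the members described in full are therefore also given without it. Of the markers of the labelled cell type, the epithelial keratins Krt8, Krt18 and Krt19 were abundant, with a summed level of 947 to 1171 CPM with 2'-FL and 847 to 967 CPM in controls. The epithelial adhesion and gut identity genes Epcam, Cdh1, Vil1, Cdx1 and Cdx2 summed to 0.554 to 1.10 CPM with 2'-FL and 1.19 to 1.42 CPM in controls. Cdx1 and Cdx2 were at 0 in all 6 libraries. Fibroblast markers, led by Col1a1 and Col3a1, summed to 8097 to 9493 CPM with 2'-FL and 7606 to 8003 CPM in controls. The 4 immune markers summed to at most 0.172 CPM and the 3 endothelial markers to at most 6.86 CPM. The keratins thus went with the epithelial label, whereas the adhesion and gut identity genes and the fibroblast sum did not. The 6 smooth muscle markers, led by Acta2, summed to 229 to 473 CPM with 2'-FL and 144 to 208 CPM in controls. The groups did not overlap in the smooth muscle and fibroblast sums, both higher with 2'-FL. Nor did they in the adhesion and gut identity sum, which was lower with 2'-FL and near the floor. The fibroblast sum is weighted by its most abundant genes. Of the 7 fibroblast markers, 5 had a log2 fold change above 0 and 2 below. Their mean log2 CPM around each gene's own mean was 0.11, 0.033 and -0.029 with 2'-FL. It was -0.11, -0.064 and 0.064 in controls, so by that measure the groups overlapped. The part of these differences in the values below was not tested. In bulk RNA, fewer cells of a type and less RNA per cell cannot be told apart.

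The promoters of the members are shown first because elements known for each pathway were searched in them. Of the matched genes, 16 of 24 in the amino acid response and 12 of 21 in endoplasmic reticulum stress held no element of their own branch, and the difference between the branches was not tested. In the RefSeq promoters of GRCm38.p6, 45 of the 53 members matched by symbol with 51 transcription starts. Aldh1l2, Atf6, Eif4ebp1, Hyou1, Manf, Slc7a3, Slc7a5 and Wars had no entry. The 250 bases before each start were searched on both strands. The first motif was TGATGNAA, the core of the C/EBP-ATF response element (CARE) that ATF4 binds with a C/EBP partner. It was present in 8 of 24 amino acid response genes and in 1 of 21 endoplasmic reticulum stress genes, Herpud1, against 3.45% of 32851 promoter windows in the table. Here and below, a member counted if any of its windows matched, whereas the share over all windows counts each window singly. The 2 measures are thus not alike for members with several starts. These are the matches in the amino acid response genes, each read in the direction of the motif, with the motif in capitals. The distance is that of the motif base farthest from the start. Annotated exons on the same strand cover 250 of the 250 bases for Nupr1, 202 for Aars and 179 for Vldlr. They cover 45 for Asns, 13 for Chac1, 1 for Slc7a11 and 0 for Gars and Pck2.
Aars (chr8:111033725-111033742, minus strand, 112 bases before the start): tcggcTGATGCAAtgctc
Asns (chr6:7693220-7693237, minus strand, 23 bases before the start): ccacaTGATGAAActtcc
Chac1 (chr2:119351044-119351061, minus strand, 193 bases before the start): aggagTGATGCAAcggca
Gars (chr6:55037966-55037983, minus strand, 30 bases before the start): gtgcaTGATGAAAtagcg
Nupr1 (chr7:126625568-126625585, plus strand, 110 bases before the start): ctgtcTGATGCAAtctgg
Pck2 (chr14:55540158-55540175, minus strand, 103 bases before the start): gatacTGATGTAActttg
Slc7a11, nearer site (chr3:50443648-50443665, plus strand, 47 bases before the start): catgaTGATGCAAattct
Slc7a11, farther site (chr3:50443667-50443684, minus strand, 66 bases before the start): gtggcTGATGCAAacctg
Vldlr (chr19:27216815-27216832, minus strand, 200 bases before the start): agcgcTGATGCAActatt

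The second motif was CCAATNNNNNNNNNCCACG, the endoplasmic reticulum stress element (ERSE) to which ATF6 binds beside the CCAAT factor NF-Y. It was present in 8 of 21 endoplasmic reticulum stress genes and in 0 of 24 amino acid response genes, against 0.113% of all windows. The matches lie in the chaperone genes Calr, Canx, Dnajc3, Hsp90b1 and Hspa5, the folding genes Creld2 and Pdia6, and Syvn1, a ubiquitin ligase of the degradation machinery. Annotated exons on the same strand cover 120 bases of the window for Hspa5, 65 for Hsp90b1, 44 for Pdia6 and 3 for Calr. They cover 0 for Canx, Creld2, Dnajc3 and Syvn1.
Calr (chr8:84847070-84847098, plus strand, 162 bases before the start): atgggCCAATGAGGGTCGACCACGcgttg
Canx (chr11:50325795-50325823, minus strand, 145 bases before the start): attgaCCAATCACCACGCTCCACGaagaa
Creld2 (chr15:88819515-88819543, minus strand, 126 bases before the start): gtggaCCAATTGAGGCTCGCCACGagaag
Dnajc3 (chr14:118937822-118937850, plus strand, 105 bases before the start): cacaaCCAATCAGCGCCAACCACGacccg
Hsp90b1, nearer site (chr10:86705528-86705556, plus strand, 107 bases before the start): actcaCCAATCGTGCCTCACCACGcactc
Hsp90b1, farther site (chr10:86705633-86705661, minus strand, 212 bases before the start): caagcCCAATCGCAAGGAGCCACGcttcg
Hspa5 (chr2:34772020-34772048, plus strand, 65 bases before the start): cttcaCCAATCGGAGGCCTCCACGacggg
Pdia6 (chr12:17266486-17266514, plus strand, 98 bases before the start): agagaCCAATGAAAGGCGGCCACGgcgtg
Syvn1 (chr19:6046527-6046555, plus strand, 44 bases before the start): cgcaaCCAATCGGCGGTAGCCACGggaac

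A shorter relative, ERSE-II (ATTGGNCCACG), was present in Herpud1 alone among the members and in 0.0304% of all windows. The XBP1 element TGACGTGG was present in no member window and in 0.563% of all windows. Herpud1, which encodes a membrane protein of endoplasmic reticulum degradation, was thus the only member with motifs of both branches, at 112 bases (CARE) and 52 bases (ERSE-II) before the start, with no overlap between them. Whole windows are printed for Herpud1, for Slc7a11 with its pair of CARE matches, and for Dnajc3 as a chaperone promoter. They are written in the direction of the gene, so that a CARE on the opposite strand reads TTGCATCA.
Herpud1 (chr8:94386179-94386428, plus strand): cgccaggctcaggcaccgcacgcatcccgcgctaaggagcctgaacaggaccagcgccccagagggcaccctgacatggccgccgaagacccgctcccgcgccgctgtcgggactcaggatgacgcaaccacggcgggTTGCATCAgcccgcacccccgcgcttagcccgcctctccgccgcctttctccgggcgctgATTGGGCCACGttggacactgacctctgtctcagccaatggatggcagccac
Slc7a11 (chr3:50443614-50443863, minus strand): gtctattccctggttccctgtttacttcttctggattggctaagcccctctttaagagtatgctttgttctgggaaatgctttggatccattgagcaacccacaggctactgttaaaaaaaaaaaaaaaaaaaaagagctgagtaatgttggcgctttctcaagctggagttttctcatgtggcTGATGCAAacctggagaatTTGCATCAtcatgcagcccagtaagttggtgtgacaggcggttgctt
Dnajc3 (chr14:118937682-118937931, plus strand): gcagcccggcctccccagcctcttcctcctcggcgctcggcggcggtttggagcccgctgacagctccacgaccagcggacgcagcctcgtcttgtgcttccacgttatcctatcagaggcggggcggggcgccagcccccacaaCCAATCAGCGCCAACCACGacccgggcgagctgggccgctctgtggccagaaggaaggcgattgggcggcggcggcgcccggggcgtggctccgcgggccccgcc
A match is a description of letters, and a window without one says nothing of binding.

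The groups were compared member by member, as 2'-FL minus control, by edgeR's quasi-likelihood test with p-values adjusted by the Benjamini-Hochberg method over all 14129 genes. No member passed an adjusted p of 0.05: 0 of 53 by edgeR and by limma-voom, and none by DESeq2. DESeq2 gave no adjusted p for Slc7a3 and Stc2. Over all genes tested, edgeR called 0%, limma-voom 0% and DESeq2 0.262% (37 genes). The smallest adjusted p among the members was 0.554, for Ddit3. At an unadjusted p under 0.05, 8 of 53 members stood out, 4 in each branch, against 7.9% of all genes tested. Higher with 2'-FL at that threshold were Herpud1, Trib3, Atf4, Aldh1l2, Dnajb11, Slc7a5 and Gars, 7 of 53 against 3.36% of all genes, and Ddit3 was lower.

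Most fitted changes had a positive sign. With 2'-FL, 24 of 29 amino acid response genes and 17 of 24 endoplasmic reticulum stress genes had a log2 fold change above 0, against 48.4% of all genes tested. The amino acid response genes below 0 were Slc7a3, Vldlr, Cebpb, Nupr1 and Stc2. The median log2 fold change was 0.12 for the amino acid response, 0.056 for endoplasmic reticulum stress and -0.0056 for all genes. The branch medians differed by 0.062. For scale, the difference between the mean log2 CPM of the branches had an SD of 0.10 between single libraries of a group. The signs rested in part on 2'-FL replicate 2, and the branch medians for the most part. Without that library, 18 of 29 and 12 of 24 members lay above 0, against 49.5% of all genes tested, and the medians were 0.014 and -0.00068. The 11 members that changed from above to below 0 without it were Psat1, Phgdh, Slc7a1, Slc6a9, Pck2, Wars, Hsp90b1, Pdia6, Edem1, Hyou1 and Ppp1r15a. Without 2'-FL replicate 1 the amino acid response median was 0.22, and without control replicate 3 or 2'-FL replicate 3 the endoplasmic reticulum stress median was 0.028 or 0.091.

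**Figure D1:**
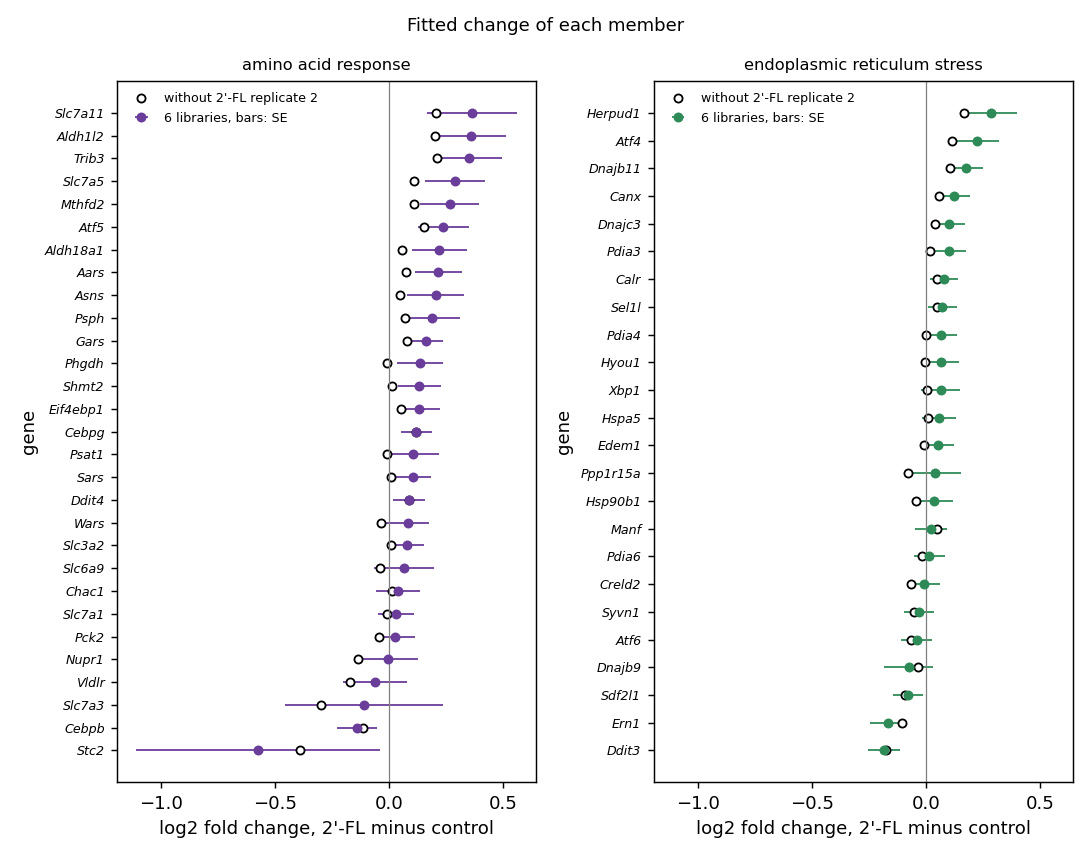
Fitted log2 fold change (2'-FL minus control, horizontal axis) of each member, with bars for the standard error over 6 libraries and open circles for the value without 2'-FL replicate 2, in the amino acid response (left) and the endoplasmic reticulum stress branch (right). Filled points lie above 0 for 24 of 29 and 17 of 24 genes, and most open circles lie nearer to 0.

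The libraries of a group rarely separated from those of the other. All 3 libraries with 2'-FL lay above all controls in 1 of 29 amino acid response genes (Cebpg) and in 3 of 24 endoplasmic reticulum stress genes (Dnajb11, Calr and Canx), against 6.74% of all genes tested. All 3 lay below the controls in Ddit3 and Sdf2l1. In either direction that is 6 of 53 members against 13.1% of all genes tested. In the other members the groups overlapped.

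The enzymes that make serine and glycine and carry folate-bound carbon were all 6 highest in 2'-FL replicate 2, and all 6 had a log2 fold change above 0, with a median of 0.16. Without that library 4 of 6 lay above 0, Phgdh and Psat1 lay just below it, and the median was 0.041. Phgdh (chr3:98313170-98339990), which takes the first step from glycolysis into serine and was the most abundant of them per length (92.6 CPM per kb), measured 207, 287 and 229 CPM in the 2'-FL libraries and 239, 212 and 206 CPM in the controls, in each case in the order of replicates 1 to 3. The 2'-FL values run from the control level to the highest of all libraries, so the groups overlapped, with a log2 fold change of 0.14 ± 0.10 (SE, adjusted p = 0.778 by edgeR). Aldh1l2, a mitochondrial enzyme of folate metabolism, measured 40.1, 58.9 and 48 CPM in the 2'-FL libraries and 49.5, 31.6 and 33.8 CPM in the controls. Control replicate 1 exceeded 2 of the 2'-FL libraries. The means were 49 ± 9.43 against 38.3 ± 9.75 CPM (SD, n = 3 each) and the log2 fold change 0.36 ± 0.15 (SE, adjusted p = 0.593 by edgeR). Mthfd2, its neighbour in the mitochondrial pathway, measured 71.3, 101 and 79.7 CPM in the 2'-FL libraries and 85.4, 60.6 and 64 CPM in the controls. As for Aldh1l2, 2'-FL replicate 2 was highest and control replicate 2 lowest. Its log2 fold change was 0.27 ± 0.13 (SE, adjusted p = 0.654 by edgeR). Phgdh, Aldh1l2 and Mthfd2 had log2 fold changes of -0.0095, 0.20 and 0.11 without 2'-FL replicate 2. Psat1 and Psph, the next steps to serine, and Shmt2, which turns serine into glycine, had log2 fold changes of 0.10, 0.19 and 0.13. Psph overlaps Cct6a on the opposite strand, a gene with 47860 counts over the 6 libraries against 5797 for Psph, and it is not stated whether reads were counted by strand. Aldh1l2, Slc6a9, Cebpb and Syvn1 likewise overlap counted genes on the opposite strand (D10Wsu102e, B4galt2, Tmem189 and Mrpl49), and Manf overlaps Rbm15b on its own strand.

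Of the other enzymes of amino acid and carbon metabolism, Asns (chr6:7675169-7693254), which makes asparagine and was the most abundant per length (40.2 CPM per kb), measured 92.9, 142 and 118 CPM in the 2'-FL libraries and 119, 94.2 and 93.5 CPM in the controls. Control replicate 1 matched 2'-FL replicate 3, and 2'-FL replicate 1 was the lowest of all, so the groups overlapped. The means were 118 ± 24.4 against 102 ± 14.5 CPM (SD, n = 3 each), with a log2 fold change of 0.20 ± 0.13 (SE, adjusted p = 0.728 by edgeR), or 0.047 without 2'-FL replicate 2. Aldh18a1, of proline synthesis, had a log2 fold change of 0.22, and Pck2, the mitochondrial phosphoenolpyruvate carboxykinase, one of 0.025.

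Among the amino acid transporters, Slc7a5, the light chain of the transporter of large neutral amino acids, was the most abundant per length (52 CPM per kb). It measured 168, 262 and 206 CPM in the 2'-FL libraries and 205, 159 and 157 CPM in the controls. 2'-FL replicate 1 lay between the controls. The log2 fold change was 0.29 ± 0.13 (SE, adjusted p = 0.626 by edgeR) with means of 212 ± 47.1 against 174 ± 27.6 CPM (SD, n = 3 each). Its heavy chain Slc3a2, shared with other light chains, ranged less, from 164 to 197 CPM, with a log2 fold change of 0.08. Slc7a11, the light chain of the cystine and glutamate exchanger and the gene with 2 CARE matches above, measured 11.3, 20.3 and 19.1 CPM in the 2'-FL libraries and 16.7, 10.9 and 11.8 CPM in the controls. Control replicate 1 and 2'-FL replicates 2 and 3 lay between 16.7 and 20.3 CPM, and the other libraries between 10.9 and 11.8 CPM, so the groups overlapped. Its log2 fold change of 0.36 ± 0.20 was the largest of the branch above 0 but also had one of the largest standard errors (adjusted p = 0.705 by edgeR). The arginine transporter Slc7a1 and the glycine transporter Slc6a9 had values of 0.027 and 0.064. Slc7a3, another transporter of basic amino acids, averaged only 1.46 CPM with a value of -0.11, and at that level counting alone gives a coefficient of variation of 17.8%. Without 2'-FL replicate 2 the log2 fold changes were 0.11 for Slc7a5 and 0.20 for Slc7a11.

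The 4 tRNA synthetases on the list charge alanine, glycine, serine and tryptophan. Gars, the most abundant per length (123 CPM per kb), measured 368, 450.0 and 400.2 CPM in the 2'-FL libraries and 369, 361 and 359.9 CPM in the controls. The 3 controls lay close together, and 2'-FL replicate 1 lay among them. The log2 fold change was 0.16 ± 0.074 (SE, adjusted p = 0.627 by edgeR). Aars measured 366, 495 and 391 CPM in the 2'-FL libraries and 405, 331 and 344 CPM in the controls, again with 2'-FL replicate 1 between controls and control replicate 1 above 2'-FL replicate 3. It had a log2 fold change of 0.21 ± 0.10 (SE, adjusted p = 0.644 by edgeR). Sars and Wars had values of 0.10 and 0.08. Leaving out 2'-FL replicate 2, the log2 fold change was 0.08 for Gars and 0.072 for Aars.

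**Figure D2:**
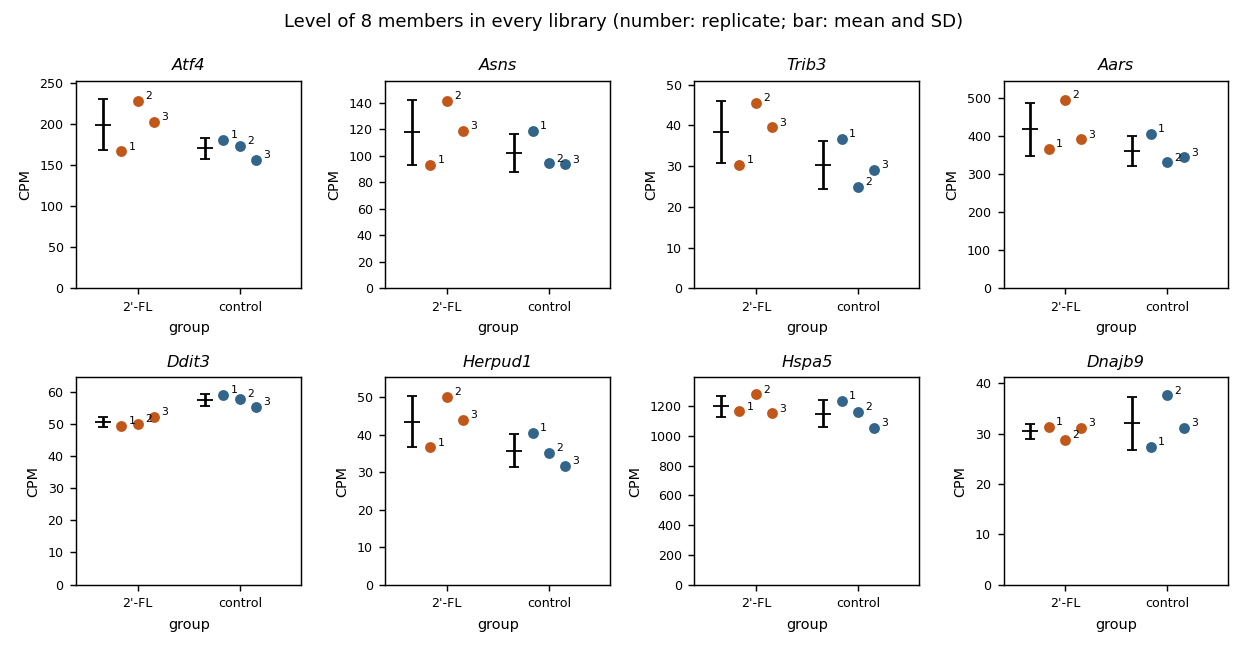
CPM (vertical axis, from 0) of 8 members in every library by group, with the replicate number beside each point and the mean and SD of the 3 libraries as a bar on the left. Atf4, Asns, Trib3, Aars and Herpud1 are highest in 2'-FL replicate 2 with replicate 1 at the level of the controls, whereas all 3 libraries with 2'-FL lie below the controls for Ddit3.

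The transcription factors and cofactors downstream of ATF4 did not follow one order. Atf5, itself translated when eIF2 is phosphorylated, measured 76.7, 99.9 and 92.6 CPM in the 2'-FL libraries and 91.5, 70.5 and 66.5 CPM in the controls. Control replicate 1 lay with the 2'-FL libraries, and the log2 fold change was 0.24 ± 0.11 (SE, adjusted p = 0.642 by edgeR). Atf5 overlaps Nup62 on the opposite strand, which had 11358 counts against 10783 for Atf5. Cebpb, the most abundant of this role per length (70.5 CPM per kb), measured 104, 97.1 and 101 CPM in the 2'-FL libraries and 92.9, 122 and 119 CPM in the controls. Its highest values were in control replicates 2 and 3, the libraries with low values of most amino acid response genes, and its log2 fold change was -0.14 ± 0.089 (SE, adjusted p = 0.735 by edgeR). Cebpg, a dimer partner of ATF4, measured 74.8, 75.6 and 76.3 CPM in the 2'-FL libraries and 73.2, 69.8 and 65.9 CPM in the controls. Its groups did not overlap, and the log2 fold change was 0.12 ± 0.067 (SE, adjusted p = 0.713 by edgeR). Nupr1, a stress-induced chromatin cofactor, had a log2 fold change of -0.0045. Atf5, Cebpb and Cebpg had log2 fold changes of 0.15, -0.11 and 0.12 without 2'-FL replicate 2.

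Of the effectors and inhibitors, Trib3 (chr2:152337422-152344032), a pseudokinase that ATF4 induces and that restrains ATF4, had the smallest p of the whole branch. It measured 30.4, 45.5 and 39.5 CPM in the 2'-FL libraries and 36.6, 25 and 29 CPM in the controls. The lowest value was in control replicate 2, and 2'-FL replicate 1 lay between controls. The means were 38.4 ± 7.61 against 30.2 ± 5.92 CPM (SD, n = 3 each), with a log2 fold change of 0.35 ± 0.14 (SE, adjusted p = 0.576 by edgeR), or 0.21 without 2'-FL replicate 2. Eif4ebp1, the inhibitor of cap-dependent translation and the most abundant of this role per length (55.1 CPM per kb), measured 110.0, 140.1 and 129.5 CPM in the 2'-FL libraries and 125, 120.4 and 102 CPM in the controls, with overlapping groups and a log2 fold change of 0.13 ± 0.093 (SE, adjusted p = 0.775 by edgeR). Chac1, which breaks down glutathione and is among the most inducible ATF4 targets, varied little, from 25.3 to 30.1 CPM, with a log2 fold change of 0.037. Ddit4, an inhibitor of mTORC1, had one of 0.086. Vldlr, a lipoprotein receptor more abundant per length than Stc2 (1.74 CPM per kb), measured 14, 19.6 and 17.9 CPM in the 2'-FL libraries. It measured 17.9, 15.1 and 20.8 CPM in the controls, so the groups overlapped. The log2 fold change of Vldlr was -0.061 ± 0.14 (SE, adjusted p = 0.945 by edgeR). The secreted glycoprotein Stc2 averaged 0.544 CPM, from 5 to 18 counts per library, with a log2 fold change of -0.58 ± 0.53 (SE), and a change was not detectable at this depth. Eif4ebp1, Vldlr and Stc2 had log2 fold changes of 0.049, -0.17 and -0.39 without 2'-FL replicate 2.

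Without a filter on low counts, 3 members passed: Trib3 at an edgeR adjusted p of 0.0319, Slc7a5 at 0.0120 and Aldh1l2 at 0.0108. In that fit the prior degrees of freedom were infinite, so a gene's own spread between libraries did not enter its test. With a filter, the smallest adjusted p of any member over the other alternatives was 0.15, for Atf4 without 2'-FL replicate 1 (log2 fold change 0.34).

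In the endoplasmic reticulum stress branch the sensors and transcription factors had values on both sides of 0. Atf4 (chr15:80255184-80257541), the factor that gives the amino acid response its program and the most abundant of this role per length (78.3 CPM per kb), measured 167, 228 and 202 CPM in the 2'-FL libraries and 181, 173 and 157 CPM in the controls. Replicates 2 and 3 with 2'-FL lay above all controls and replicate 1 among them. The means were 199 ± 30.9 against 170.1 ± 12.4 CPM (SD, n = 3 each), with a log2 fold change of 0.23 ± 0.10 (SE, adjusted p = 0.59 by edgeR), or 0.11 without 2'-FL replicate 2. ATF4 is set largely by translation, which counts of its mRNA do not measure. Ddit3 (CHOP, chr10:127290774-127296288), a target of ATF4 tied to cell death under lasting stress, measured 49.4, 49.9 and 52.2 CPM in the 2'-FL libraries and 58.9, 57.6 and 55.2 CPM in the controls. All 3 libraries with 2'-FL lay below all controls, and the spread within groups was small. The means were 50.5 ± 1.51 against 57.3 ± 1.86 CPM (SD, n = 3 each), with a log2 fold change of -0.18 ± 0.07 (SE, adjusted p = 0.554 by edgeR), and -0.17 without 2'-FL replicate 2. Ddit3 overlaps Mars on the opposite strand (13507 counts against 6946), and its symbol is also listed on a second row with 0 counts in every library.

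Ern1, the sensor IRE1, measured 84, 71.6 and 78.7 CPM in the 2'-FL libraries and 89.9, 79.7 and 93 CPM in the controls. The highest values were in control replicates 3 and 1 and the lowest in 2'-FL replicate 2, and the groups overlapped through control replicate 2. The log2 fold change was -0.16 ± 0.079 (SE, adjusted p = 0.642 by edgeR), or -0.11 without 2'-FL replicate 2. Xbp1, whose mRNA IRE1 splices, and Atf6 had log2 fold changes of 0.064 and -0.04. Counts per gene do not separate the spliced from the unspliced Xbp1 mRNA. Ppp1r15a (GADD34), which brings the phosphatase to eIF2, had a value of 0.039.

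The chaperones held the next 4 places behind Pdia3 among all 53 members in level per length. Calr had 397 CPM per kb, before Hspa5 with 278, Hsp90b1 with 272 and Canx with 220.4 CPM per kb. Hspa5 and Hsp90b1 differed by less than their spread over libraries, which was 6.64% and 8.38%. Calr, a lectin chaperone of glycoproteins, measured 1169, 1224 and 1134 CPM in the 2'-FL libraries and 1114, 1129.6 and 1095 CPM in the controls. The lowest 2'-FL library lay just above the highest control, a gap smaller than the SD with 2'-FL, with means of 1176 ± 45.4 against 1113 ± 17.5 CPM (SD, n = 3 each). Its log2 fold change was 0.079 ± 0.063 (SE, adjusted p = 0.801 by edgeR). Hspa5 (BiP), the standard readout of unfolded protein, measured 1164, 1278 and 1151 CPM in the 2'-FL libraries and 1235, 1162 and 1051 CPM in the controls, with overlapping groups and a log2 fold change of 0.059 ± 0.074 (SE, adjusted p = 0.881 by edgeR). Dnajb11, a cochaperone of BiP, measured 182, 214 and 191 CPM in the 2'-FL libraries and 180.5, 180.1 and 159 CPM in the controls. All 3 libraries with 2'-FL exceeded the controls, the lowest by less than the SD of either group, and the log2 fold change was 0.18 ± 0.076 (SE, adjusted p = 0.594 by edgeR). Canx, the membrane-bound partner of Calr, had a log2 fold change of 0.12, Dnajc3 of 0.10, Hyou1 of 0.065, Hsp90b1 of 0.038, Sdf2l1 of -0.079 and Dnajb9 of -0.075. Dnajb9, a cochaperone under IRE1 and XBP1, was lowest in control replicate 1 and highest in control replicate 2, at 27.3 and 37.6 CPM. Calr, Hspa5 and Dnajb11 had log2 fold changes of 0.049, 0.0093 and 0.11 without 2'-FL replicate 2.

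Pdia3, a disulfide isomerase that works with Calr and Canx on glycoproteins, was the most abundant of all 53 members per length (487 CPM per kb). It measured 1481, 1748 and 1511 CPM in the 2'-FL libraries and 1493, 1531 and 1401 CPM in the controls, with control replicate 2 above 2 of the 2'-FL libraries and a log2 fold change of 0.10 ± 0.075 (SE, adjusted p = 0.786 by edgeR). The isomerases Pdia4 and Pdia6 had values of 0.067 and 0.016, and the secreted folding factors Creld2 and Manf -0.0087 and 0.022. In the degradation machinery, Herpud1 (chr8:94386438-94395377), whose promoter held both CARE and ERSE-II, measured 36.6, 50.1 and 43.9 CPM in the 2'-FL libraries and 40.6, 35.1 and 31.7 CPM in the controls. The order of its libraries was that of Atf4 at both ends, and control replicate 1 lay above 2'-FL replicate 1. The means were 43.5 ± 6.72 against 35.8 ± 4.5 CPM (SD, n = 3 each), with a log2 fold change of 0.28 ± 0.11 (SE, adjusted p = 0.562 by edgeR), the largest of the branch, or 0.17 without 2'-FL replicate 2. Edem1, a lectin that marks misfolded glycoproteins and the most abundant of this role per length (27.4 CPM per kb), measured 171, 195 and 174 CPM in the 2'-FL libraries and 178, 169 and 175 CPM in the controls, with overlap and a log2 fold change of 0.054 ± 0.068 (SE, adjusted p = 0.881 by edgeR). Sel1l and Syvn1, which form the ubiquitin ligase complex of this pathway, had values of 0.071 and -0.031. For Pdia3 and Edem1 the log2 fold changes without 2'-FL replicate 2 were 0.02 and -0.0092.

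The branches differed in their spread over the libraries. The median coefficient of variation over the 6 libraries was 14.6% in the amino acid response, 7.03% in endoplasmic reticulum stress and 9.23% over all genes tested, or 11.8%, 5.34% and 8.44% without 2'-FL replicate 2. Counting alone would give medians of 2.44%, 1.74% and 4.11%. The highest library exceeded the lowest by a median of 1.40-fold, 1.20-fold and 1.28-fold. Abundant amino acid response genes were among the variable ones: Slc7a5 varied by 21% at a mean of 193 CPM, and Aars by 15.3% at 389 CPM. Chaperones of higher abundance varied less, as Calr by 4.03% and Hspa5 by 6.64%. Within the endoplasmic reticulum stress branch, Herpud1 at 16.8% and Atf4 at 14.3% lay in the range of the amino acid response, and Chac1 (7.9%), Cebpg (5.56%) and Ddit4 (5.55%) lay in that of the chaperones.

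**Figure D3:**
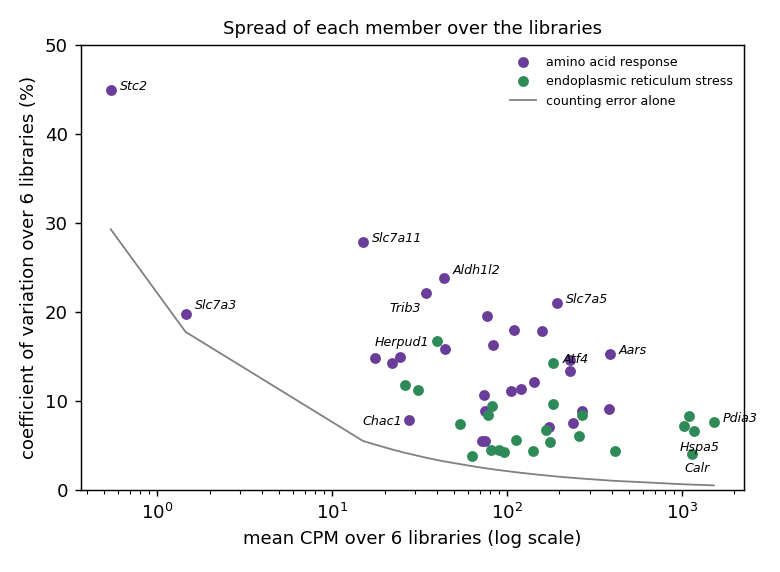
Coefficient of variation over 6 libraries (vertical axis, percent) against mean CPM (horizontal axis, log scale) for the 53 members, coloured by branch, with the value that counting error alone gives as a line. At the same abundance most amino acid response genes lie above most endoplasmic reticulum stress genes, with medians of 14.6% and 7.03%.

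The spread had one order of libraries for most of the amino acid response. The level of the branch was computed as the mean over its genes of log2 CPM minus each gene's own mean. By replicate, it was -0.11, 0.23 and 0.034 with 2'-FL and 0.091, -0.16 and -0.088 in controls. 2'-FL replicate 2 was thus highest, control replicate 1 second, and 2'-FL replicate 1 lay with the low controls, so the groups overlapped. The level of the endoplasmic reticulum stress branch was -0.032, 0.10 and -0.010 with 2'-FL and 0.017, -0.016 and -0.063 in controls. It had the same 3 highest libraries, with a range of 0.17 against 0.38. The ranges were 0.080 and 0.25 without 2'-FL replicate 2. Over the 6 libraries the levels of the branches had a Pearson r of 0.87 and a Spearman rho of 0.77, and r was 0.88 without the 2 libraries farthest from the median (2'-FL replicate 2 and control replicate 2). Leaving out 2'-FL replicate 2 alone gave an r of 0.65. These and the following correlations describe 6 libraries that share group, depth and scaling. In 37 of 53 members 2'-FL replicate 2 was the highest library, against 3136 of 14129 genes. The lowest library was control replicate 3 in 21 members and control replicate 2 in 15, against 2443 and 2416 of 14129 genes. 2'-FL replicate 2 was the lowest library in 1 member and in 3442 of 14129 genes.

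**Figure D4:**
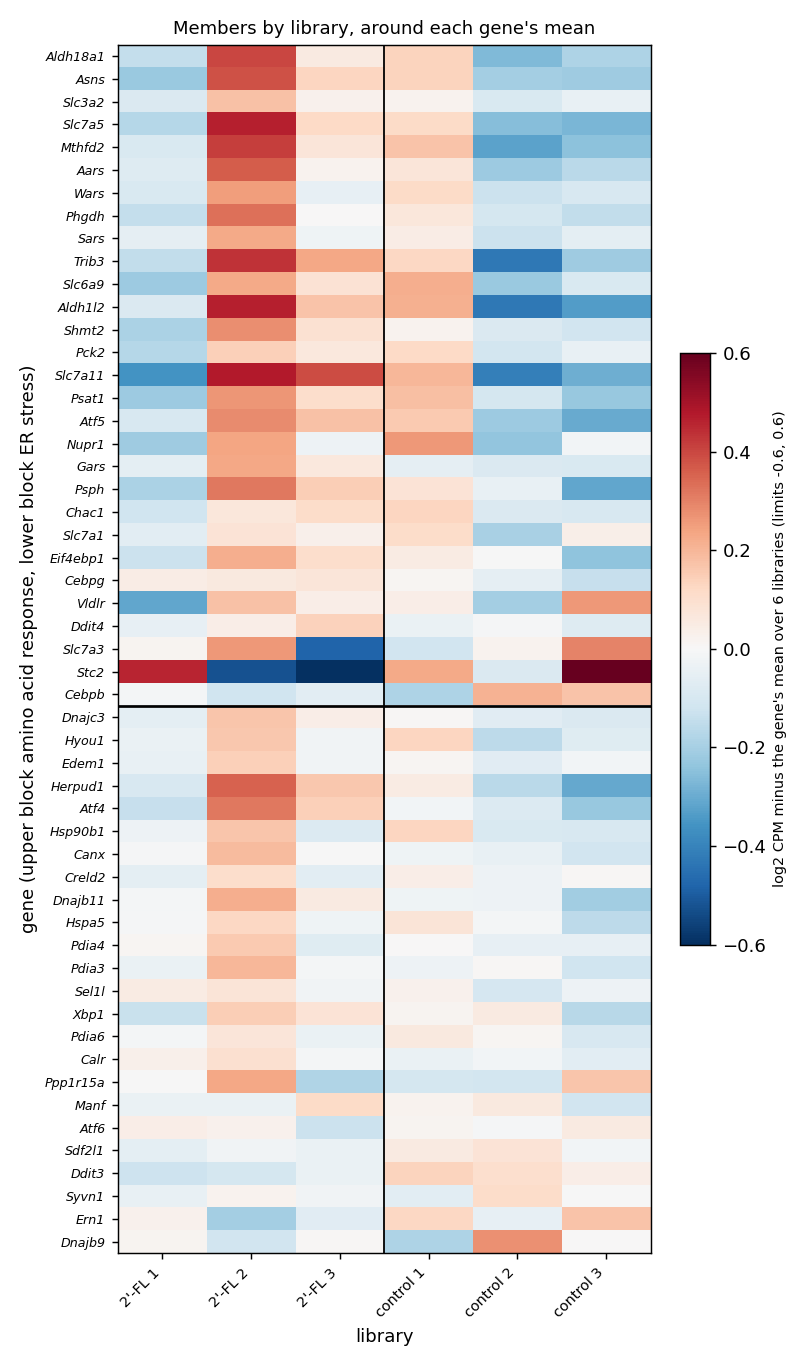
Log2 CPM of each member minus its mean over the 6 libraries (colour, cut at -0.6 and 0.6), with genes as rows, sorted within each branch by their correlation with the amino acid response level, and libraries as columns. 2'-FL replicate 2 is the highest library in 37 of 53 rows, and Cebpb, Stc2 and Dnajb9 are among the 9 rows with an r below 0 with that level.

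Pair by pair, amino acid response genes followed each other over the libraries. The median Pearson r was 0.78 over 406 pairs within that branch, 0.35 over 276 pairs within endoplasmic reticulum stress, 0.53 over 696 pairs between the branches and -0.00063 over all pairs of genes tested. After each gene's group means were removed, the medians were 0.78, 0.45 and 0.51. Without 2'-FL replicate 2 they were 0.71, 0.16 and 0.25. The values within endoplasmic reticulum stress and between the branches thus rested on that library more than the value within the amino acid response. The amino acid response level had an r of 0.87 with the first principal component, on which 2'-FL replicate 2 stood apart. With the level of the cholesterol synthesis genes described below its r was 0.93. Whether the genes of the branch followed each other beyond such shared differences between libraries was not tested.

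Against the level of the amino acid response, with the gene itself left out, 20 of its 29 genes and 6 of 24 endoplasmic reticulum stress genes had an r above 0.8, as did 6.48% of all genes tested. Aldh18a1 was closest (0.99), with Asns, Mthfd2, Slc7a5, Slc3a2 and Aars at 0.97. The 6 of the other branch were Hyou1 (0.94), Dnajc3 (0.94), Edem1 (0.92), Herpud1 (0.89), Atf4 (0.85) and Hsp90b1 (0.85). Without 2'-FL replicate 2 the counts were 19 of 29 and 3 of 24, against 5.92% of all genes tested. Hyou1, Dnajc3 and Edem1 were still above 0.8, whereas Herpud1 had an r of 0.75, Hsp90b1 of 0.68 and Atf4 of 0.64. An r below 0 was found for 3 of 29 and 6 of 24 members: Cebpb (-0.81), Dnajb9 (-0.77), Stc2 (-0.62), Ern1 (-0.48), Syvn1 (-0.29), Ddit3 (-0.25), Sdf2l1 (-0.16), Atf6 (-0.097) and Slc7a3 (-0.060). The sign for Ddit3, a known direct target of ATF4, and for Ern1 depended on 1 library: without 2'-FL replicate 2 their r was 0.23 and 0.19. The 8 amino acid response genes with CARE letters had a median r of 0.90 and a median log2 fold change of 0.099, against 0.91 and 0.11 in the 16 matched genes without. For the 9 endoplasmic reticulum stress genes with ERSE or ERSE-II the median log2 fold change was 0.059, and it was 0.059 for the 12 without.

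Of 7 lists that hold no member, 3 had the same 3 libraries highest as the branches, 2'-FL replicates 2 and 3 and control replicate 1. These were the other tRNA synthetases, cholesterol synthesis and the genes of eIF2, its kinases and eIF2B. The 16 cytosolic tRNA synthetases that are not members had levels of -0.058, 0.18 and 0.017 with 2'-FL and 0.051, -0.13 and -0.062 in controls, with a median pairwise r of 0.77. The 19 genes of cholesterol synthesis, another biosynthetic program, had levels of -0.17, 0.29 and 0.13 with 2'-FL and 0.12, -0.13 and -0.23 in controls, with a median pairwise r of 0.89. The keratins Krt8, Krt18 and Krt19 were also highest in 2'-FL replicate 2, at 0.30, and lowest in control replicate 3, at -0.19. The part of any of these in the members' pattern was not tested. The other 4 lists were highest in 2'-FL replicate 2 but had another library among the top 3. Control replicate 2 was second in the cytosolic heat shock genes (0.038) and lay above control replicate 1 in the further amino acid response genes (0.0050 against -0.0069). 2'-FL replicate 1 was second in the further folding and degradation genes (0.012) and followed 2'-FL replicate 3 in the NRF2 targets (0.0094), where control replicate 1 was lowest (-0.074). Further genes of the amino acid response outside the members, 25 of which were tested, had a median pairwise r of 0.11, and 37 further folding and degradation genes of the endoplasmic reticulum one of 0.12.

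**Figure D5:**
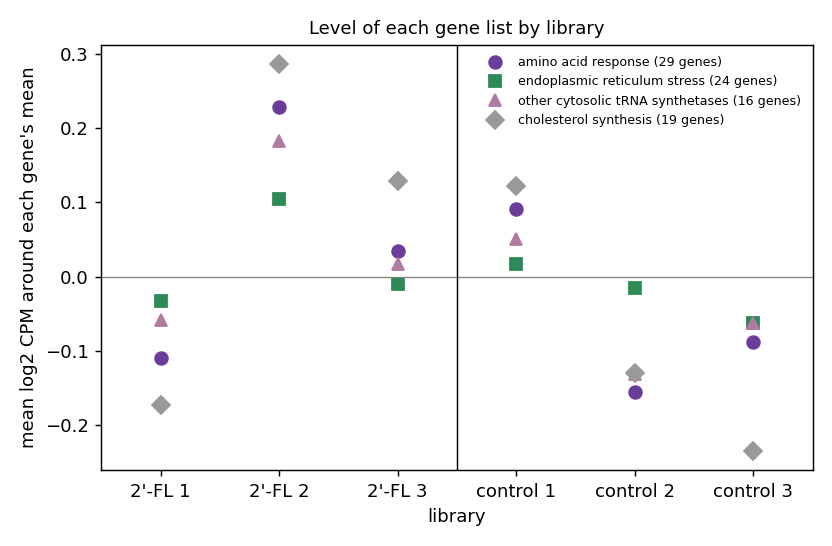
Mean over genes of log2 CPM around each gene's own mean (vertical axis) by library (horizontal axis) for both branches, the other cytosolic tRNA synthetases and cholesterol synthesis. All 4 lists are highest in 2'-FL replicate 2, and the amino acid response runs from -0.16 to 0.23 against -0.063 to 0.10 for endoplasmic reticulum stress.

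The wider pathway was read from 7 lists that hold no member, and none of their genes was called by edgeR, DESeq2 or limma-voom. Beside the counts below, 7.9% of all genes tested had an unadjusted p under 0.05 by edgeR. Those also higher with 2'-FL were 3.36% of all genes tested. The lists were not tested against these shares. Of 13 genes for eIF2 kinases and subunits of eIF2 and eIF2B, the upstream part of the pathway, none had an unadjusted p under 0.05. The smallest p values were those of Eif2ak3, the kinase PERK, and Eif2ak2, the kinase PKR, with log2 fold changes of 0.19 and -0.11. The 25 tested further amino acid response genes had 7 at an unadjusted p under 0.05, 4 of them higher, and a median log2 fold change of 0.038. Shmt1, the cytosolic counterpart of Shmt2, and Cth, of cysteine synthesis, had the smallest p, with log2 fold changes of -0.24 and 0.31. The other tRNA synthetases had 1 of 16 at an unadjusted p under 0.05 and a median of 0.098, led by Cars (0.24) and Iars (0.17). Further folding and degradation genes had 2 of 37 at an unadjusted p under 0.05 and a median of 0.037, led by Pdia5 (0.17) and Fkbp11 (-0.23). Among 13 cytosolic heat shock genes, 1 had an unadjusted p under 0.05, with a median of 0.017, led by Bag3 and Hspa1b, both at 0.14. Of 12 targets of NRF2, the factor of oxidative stress, 4 were higher at an unadjusted p under 0.05, with a median of 0.12, led by Nqo1 (0.28) and Hmox1 (0.20). Cholesterol synthesis had 1 of 19 at an unadjusted p under 0.05 and a median of 0.17, led by Nsdhl (0.32). Without 2'-FL replicate 2 the medians were 0.036 for the other tRNA synthetases, 0.036 for cholesterol synthesis, 0.054 for NRF2 targets and -0.031 for heat shock genes. They were 0.014 for further amino acid response genes, 0.022 for further folding and degradation genes and -0.0038 for eIF2 and its kinases, whose median over all libraries was 0.021.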

How the data were processed

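The authors deposited 1 file per library with whole-number counts of reads for each gene, not normalized, and the authors' gene length in bases was used for levels per length. Per the submitters' processing notes, bcl2fastq, FastQC 0.11.9, Bowtie2 2.7.3a and the build GRCh38 were used. The files hold mouse identifiers, and all 54 member rows (Ddit3 is on 2) have the positions of GENCODE M21 on GRCm38, the build of the coordinates here. RNA was extracted with a Qiagen RNeasy kit and libraries were made with NEBNext Ultra II, per the labels' protocols. The sources used here do not give the counting program or its use of strand.

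The tests were run with edgeR 4.0.16 in R 4.3.3: filterByExpr (minimum count 10), TMM scaling, the quasi-likelihood test without robust estimation, Benjamini-Hochberg adjustment over 14129 genes and a threshold of 0.05. DESeq2 1.42.0 and limma-voom (limma 3.58.1) were alternatives. CPM use TMM factors, marker levels use the library total, and correlations use log2 CPM with a prior count of 2. The fit was tested on simulated data with 50 changed genes of each size. Of those that passed the filter, it recovered 18.4% at 1.25-fold, 66% at 1.5-fold, 74.5% at 2-fold and 96% at 3-fold, with 8 false calls. With no change simulated it called 1 gene. In that simulation most changes of 1.25-fold were thus missed. Its genes were drawn independently, without the differences between libraries that many genes share in these data, so its rates may not hold here. Groups came from the labels, which do not say that replicates are separate cultures, and the p-values therefore reflect the spread among these libraries alone, possibly technical. Chi-square per degree of freedom between libraries of a group was 4.99 to 13.5, so no pair agreed within sampling noise. Members and lists were chosen with earlier results of these data known. Members are named by role, with full values for the 12 with the smallest p and the most abundant per length of each role, and of other lists the 2 genes with the smallest p, of which 1 is not reported here. Cebpg, Slc7a11, Hspa5, Chac1, Dnajb9 and the genes named for their correlations were chosen after their values were seen. Sequences are from RefSeq promoters of GRCm38.p6.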

Additional observations from a re-analysis of the deposited data

How the results depend on the processing

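No member was called under any of 16 alternatives except 3 amino acid response genes without a filter on low counts, where the prior degrees of freedom were infinite. Over all genes edgeR called 158 without a filter, 5 with robust estimation and 0 to 28 leaving out each library in turn (28 without control replicate 2, 21 without 2'-FL replicate 1), and DESeq2 called 37; the cause was not tested. Of 847 values of single members, 807 kept their sign and side of the threshold and 37 changed sign, 33 of these when a library was left out and 11 of them without 2'-FL replicate 2. None of the 12 members with the smallest p changed sign. Leaving out each library, the median log2 fold change ranged from 0.014 to 0.22 in the amino acid response and from -0.00068 to 0.091 in endoplasmic reticulum stress, and their difference from 0.014 to 0.15. The median r ranged from 0.71 to 0.83 within the amino acid response, from 0.16 to 0.44 within endoplasmic reticulum stress and from 0.25 to 0.62 between them. It was 0.39 between them with library totals alone, and within endoplasmic reticulum stress 0.45 for deviations from group means and 0.48 with trends of GC content and length removed, an alternative chosen after seeing the data.

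With the replicate number as a block, 1 gene was called over all genes and 0 members. Same-numbered libraries had correlations of deviations of -0.12, -0.068 and -0.051, and differently numbered ones from -0.048 to 0.11. No pairing by number was seen, but deviations within groups of 3 libraries cannot settle whether the samples were paired. Low counts limit Stc2 and Slc7a3.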
